A study of Mus musculus with 2 samples.

Results

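The cytosolic ribosomal protein genes were examined in whole-cell RNA from mouse neural tube, the embryonic forerunner of brain and spinal cord. They were taken as the protein-coding genes whose symbols start with Rpl or Rps followed by a digit, together with Rplp0, Rplp1, Rplp2 and Rpsa, without symbols holding "-ps" and without the Rps6k kinases. This gave 86 of the 43346 gene rows, 33 genes of the small subunit and 52 of the large subunit. The remaining gene, Rps19bp1, is kept by its symbol but encodes a binding partner of ribosomal protein S19 and is left out of comparisons between subunits. There was 1 group of 2 libraries, each described by the labels as the neural tube of 1 embryo of strain B6NCrl at embryonic day 14.5. Replicate 1 came from pup 1 of pregnant female 1 and replicate 2 from pup 1 of pregnant female 2, while the sex label reads pooled male and female. Each library was made from 10.0 ng of RNA longer than 200 bases, with spike-in RNA added. No treatment, mutant or other tissue was part of the comparison, so levels are compared between genes and between these libraries, with no p-value.

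The cytosolic ribosome translates nearly all cellular mRNA and has a small subunit, which reads the mRNA, and a large subunit, which forms the peptide bond. Each ribosome carries a single copy of most of these proteins, and the exception is the stalk of the large subunit, where P1 and P2 bind P0 as dimers. Mammalian ribosomal protein mRNAs start with a run of pyrimidines, the TOP motif, through which growth signalling controls their translation. Their mRNAs have also been copied back into the genome many times, and most of these processed copies are annotated as pseudogenes. In mouse, mutants of single ribosomal protein genes have tissue-restricted phenotypes, several of them in the skeleton, skin and nervous system.

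Expected counts, the estimated reads per gene, totalled 33360108 in replicate 1 and 26025302 in replicate 2, with spike-ins taking 3.31% and 2.29%. All 10 postmitotic neuron markers, such as Tubb3 and Stmn2, passed 1 TPM (transcript abundance scaled for length and depth) in both libraries. Markers of meninges or fibroblasts summed to 44.2 TPM in replicate 1 and 978 TPM in replicate 2 over 6 genes, and markers of sensory ganglia to 24.8 and 161 TPM over 6 genes. Of the sensory ganglion genes, 5 were lower in replicate 1, while Calca was higher there at 22.4 and 16.1 TPM and made up most of the sum in replicate 1. Erythroid markers summed to 10951 TPM in replicate 1 and 9340 TPM in replicate 2 over 7 genes, and skeletal muscle markers to 41.8 and 20.95 TPM over 6 genes. These are bulk samples, in which fewer cells of a type and less RNA per cell cannot be told apart.

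Of the 86 genes, 83 were at 1 TPM or more in both libraries, and all 83 were also above 10 TPM in both. Of all 43346 gene rows, 15831 were at 1 TPM or more in replicate 1 and 15954 in replicate 2. Together the members held 36512 of 920774 TPM on gene rows in replicate 1 and 38450 of 943362 TPM in replicate 2, a share of 3.97% and 4.08% (mean 4.02% ± 0.0782, SD, n = 2). Of the read counts they held 1.37% in replicate 1 and 1.36% in replicate 2, lower than the TPM share because the genes are short. The 77 canonical genes, which are the subunit genes without the paralogues described below, had median levels of 449 and 457 TPM in replicates 1 and 2, against 4.87 and 5.65 TPM over 21461 protein-coding nuclear genes. Ranked by mean TPM among those, 8 members were within the highest 100, 65 within the highest 500 and 73 within the highest 1000. In both libraries 72 of the 77 canonical genes lay between 100 and 1000 TPM, 1 was above that range and 3 were below it. The levels of the canonical genes followed the same order in both libraries (Spearman rho 0.984 and Pearson r 0.993 of log2 TPM across 77 genes, which share the library and are not replicates). The SD between the libraries had a median of 3.81% of the mean and reached 17.1%.

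Rpl41, which encodes the smallest ribosomal protein, was the highest member at 1968 TPM in replicate 1 and 1919 TPM in replicate 2 (mean 1943 ± 34.1, SD, n = 2), rank 21 among the protein-coding genes. Next was Rps19, a small subunit gene whose mouse mutants include dark-skinned animals, at 987 and 1042 TPM (mean 1014 ± 38.6). No other member passed 1000 TPM in either library. Rpl32 followed at 843 and 876 TPM, then Rps14 at 792 and 849 TPM, Rps29 at 814 and 813 TPM, Rplp1 at 822 and 795 TPM, Rpl36 at 817 and 797 TPM and Rpl37a at 799 and 808 TPM. From Rpl32 to Rpl37a, each gene's range over the libraries overlapped that of its neighbour in the order. Of the small subunit, Rps18 had 647 and 699 TPM, Rps25 653 and 658 TPM, Rps26 654 and 624 TPM, Rps9 555 and 660.3 TPM and Rps2 591 and 609.8 TPM. Of the large subunit, Rpl23a had 754 and 741 TPM, Rpl7 691 and 773 TPM and Rpl13 584 and 719 TPM. Rpl13 is the member of this group whose libraries lay furthest apart, at 652 ± 95.2 TPM.

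At the low end of the canonical genes, Rpl5 had 50.2 TPM in replicate 1 and 56.9 TPM in replicate 2. Rpl27a had 68.0 and 67.7 TPM, and Rpl12 77.5 and 90.9 TPM. Rps23 had 123 and 119.5 TPM, Rpl27 113 and 134 TPM, Rps12 129 and 122 TPM, and Rpl22 115 and 139 TPM. Rpl37 (146 and 151 TPM), Rpl28 (151 and 153 TPM), Rpl10a (182 and 200.0 TPM) and Rpl11 (188 and 205 TPM) were the next lowest canonical large subunit genes. Among canonical small subunit genes the next lowest were Rps20 (233 and 297 TPM), Rps6 (289 and 297 TPM), Rps3 (289 and 329 TPM), Rps27 (324 and 333 TPM), Rps21 (333 and 325 TPM), Rps15a (327 and 336 TPM), Rps4x (309 and 357 TPM) and Rps7 (309.7 and 391 TPM). The distance from Rpl5 to Rpl41 was 39.2-fold in replicate 1 and 33.7-fold in replicate 2.

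**Figure D1:**
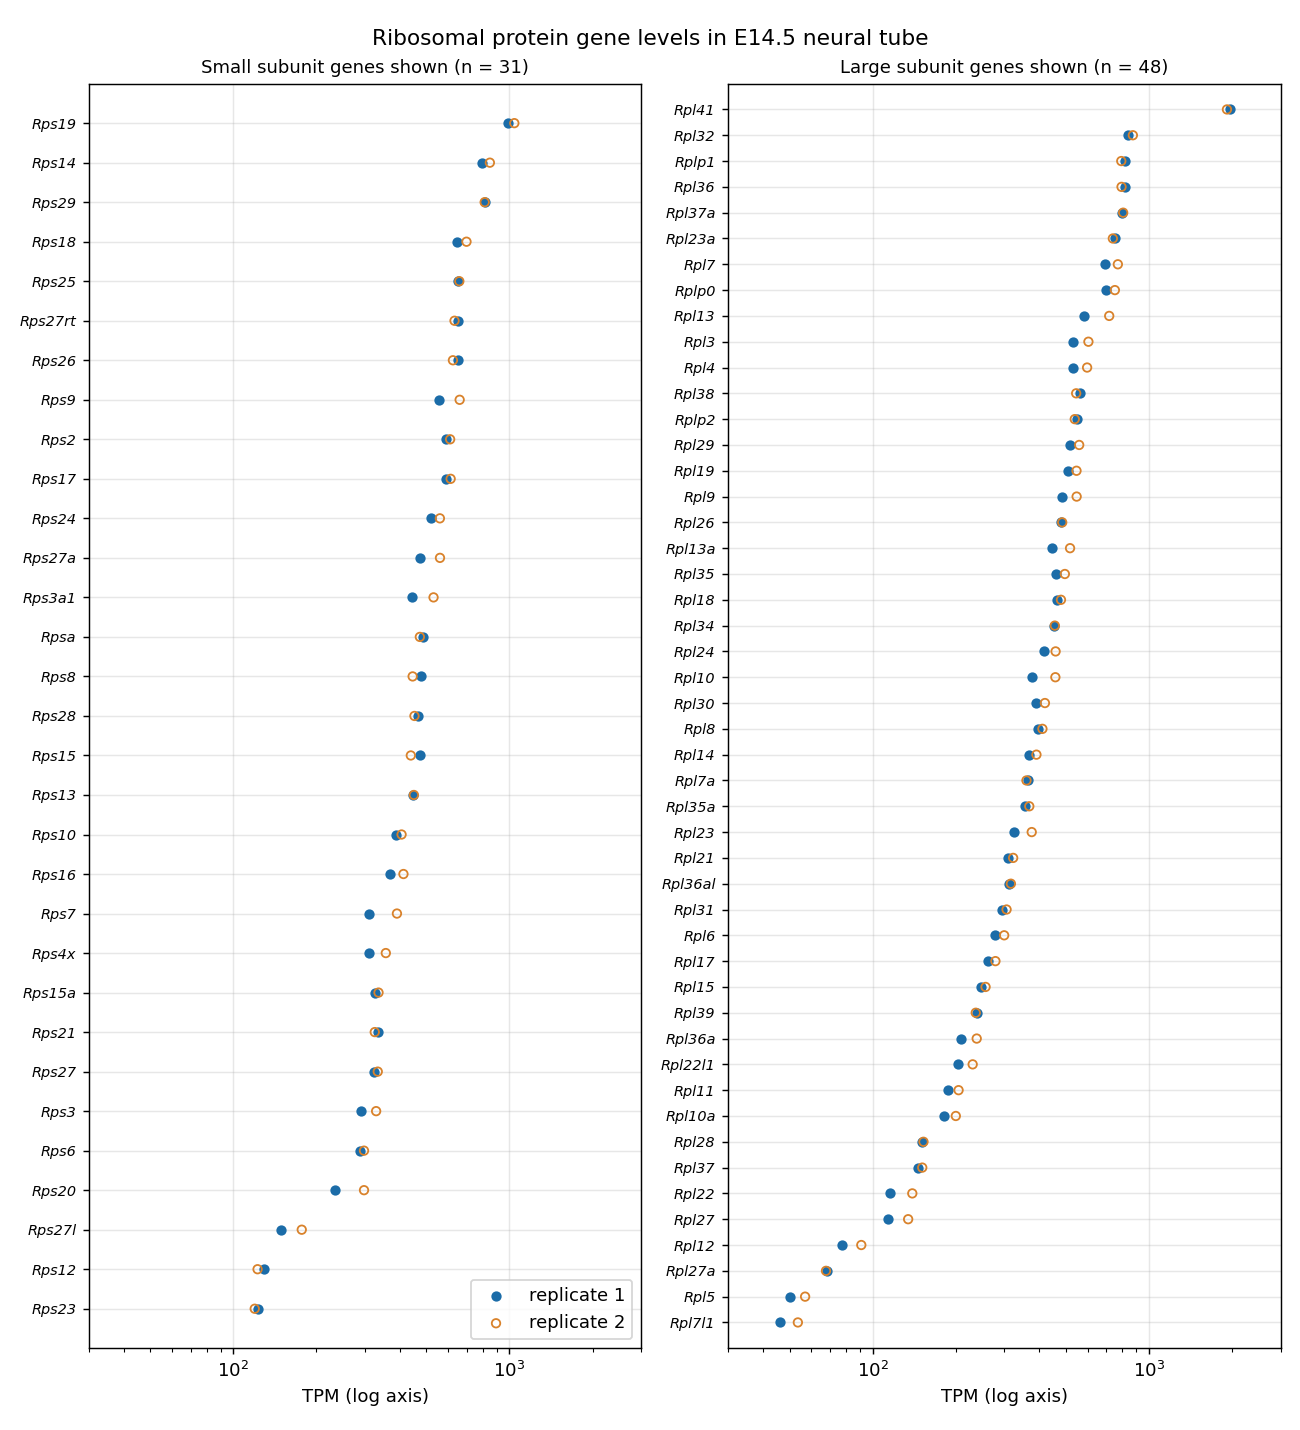
TPM on a log axis of 31 of the 33 small subunit genes (left) and 48 of the 49 large subunit genes (right) at 1 TPM or more, the other 3 not reported here by name, ordered by mean, with replicate 1 as filled and replicate 2 as open points. Most genes lie between 100 and 1000 TPM with the libraries close together. Rpl41 stands above 1000 TPM in both libraries and Rps19 in replicate 2 only, and Rpl7l1, Rpl5, Rpl27a and Rpl12 lie under 100 TPM.

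By role, and on their own rows, the stalk genes were all among the higher members. Rplp0, the P0 base, had 700.4 TPM in replicate 1 and 754 TPM in replicate 2, Rplp1 822 and 795 TPM, and Rplp2 552 and 539 TPM. The genes of the 5S RNA particle, whose proteins also bind the p53 regulator Mdm2 when assembly is disturbed, were both in the lower part of the range: Rpl5 as above and Rpl11 at 188 and 205 TPM. Rps6, the substrate of the S6 kinases, had 289 and 297 TPM. With the rows of processed copies described below added, Rps6 came to 583 and 651 TPM, Rpl5 to 360.3 and 391 TPM and Rpl11 to 362 and 379 TPM. The median canonical gene was then at 533 and 562 TPM, so Rps6 lay above it and Rplp2 lay below it in replicate 2. Rpsa, which also encodes the laminin receptor precursor, had 485 and 474 TPM.

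Among genes with mouse mutants, Rpl38, whose loss disturbs translation of Hox mRNAs and the axial skeleton in the Tail short mouse, had 562 TPM in replicate 1 and 546 TPM in replicate 2. Rpl24, mutated in the Belly spot and tail mouse, had 417 and 459.7 TPM, and Rpl29, whose loss gives small mice, had 520.0 and 559.6 TPM. Rps20, mutated in dark-skinned mice, had 233 and 297 TPM, and Rps7 had 309.7 and 391 TPM. Rpl27a, mutated in the sooty foot ataxia mouse, stood far lower in its own row at 68.0 and 67.7 TPM. On the X chromosome lie 4 members. Of these, Rpl10 had 376 and 459 TPM, Rps4x 309 and 357 TPM, Rpl39 239 and 236 TPM, and Rpl36a 209 and 238 TPM. Chromosome 7 held 14 members, the most of 19 chromosomes.

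The small and large subunit genes overlapped widely in level. The median small subunit gene stood at 474 and 453 TPM in replicates 1 and 2, over 33 genes, against 372 and 402 TPM over 52 large subunit genes. The interquartile range of the small subunit genes was 324 to 591 TPM in replicate 1 and that of the large subunit genes 199.6 to 523 TPM. On the log2(TPM + 1) scale the small minus large difference of medians was 0.35 in replicate 1 and 0.17 in replicate 2 (mean 0.26 ± 0.13, SD, n = 2). Without the paralogues, 6 of which belong to the large subunit and 3 of those are near 0, it was 0.22 in replicate 1 and -0.02 in replicate 2, so the direction differed between libraries. With the matched pseudogene rows added to each canonical gene it was 0.17 and 0.25, an alternative chosen after seeing the data. In all, small subunit genes held 15531 TPM in replicate 1 and 16366 TPM in replicate 2, and large subunit genes 20916 and 22024 TPM.

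Paralogues of ribosomal protein genes arose by duplication or by copying of an mRNA, and 8 of them were measured. Of these, 5 lay below their canonical gene in both libraries and 3 lay above it. Rpl3l, which in adult mice is a gene of heart and skeletal muscle, had 3 counts in replicate 1 and 2 counts in replicate 2 (0.160 and 0.270 TPM), against 531 and 604 TPM for Rpl3. Rpl10l, which replaces the X-linked Rpl10 in male meiosis, had 0 counts in both libraries, against 376 and 459 TPM for Rpl10. A count of 0 allows up to 3 counts, here 0.160 TPM in replicate 1 and 0.217 TPM in replicate 2, or 0.0426% and 0.0473% of the Rpl10 level. Rpl39l, also known as a gene of the male germline in mouse, had 2 counts in each library (0.140 and 0.300 TPM), against 239 and 236 TPM for Rpl39. Rpl7l1, whose protein is linked to ribosome assembly, had 46.0 and 53.6 TPM, against 691 and 773 TPM for Rpl7, a log2 ratio of -3.88 and -3.83.

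The order of Rpl22l1 and Rpl22 depended on how the level was taken. It had 203 TPM in replicate 1 and 230.2 TPM in replicate 2, against 115 and 139 TPM for Rpl22, a log2 ratio of 0.82 and 0.72. The effective length of Rpl22 was 1027 bases in replicate 1, and that of Rpl22l1 was 424 bases, so the read counts ran the other way, with 1749 and 1486 for Rpl22l1 against 2397 and 1891 for Rpl22. A processed transcript without a coding sequence in the annotation, Rpl22l1-209, took 40.6% of Rpl22l1's TPM in replicate 1 and 28.1% in replicate 2, next to 41.4% and 49.4% for the coding transcript Rpl22l1-206. In coding transcripts alone, Rpl22l1 had 105 and 149 TPM, against 110.4 and 131 TPM for Rpl22, so it was below Rpl22 in replicate 1 and above it in replicate 2.

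Rpl36al, an autosomal copy of the X-linked Rpl36a, had 312 TPM in replicate 1 and 317 TPM in replicate 2, against 209 and 238 TPM for Rpl36a. This was a log2 ratio of 0.57 and 0.41, and it was also above 0 in counts, in posterior mean TPM and in coding transcripts alone. The coding sequences of this pair are both 321 bases long and differ at 39 positions, an identity of 87.9%.

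Rps27 has both a copy that differs and a copy that does not. Rps27l had 149 TPM in replicate 1 and 177 TPM in replicate 2, and Rps27rt 654 and 633 TPM, against 324 and 333 TPM for Rps27. The coding sequence of Rps27l differs from that of Rps27 at 61 of 255 positions, whereas that of Rps27rt differs at none. The first 90 coding bases of each are shown because they decide whether reads can be told apart, with bases that differ from Rps27 in capitals (GENCODE release M21 transcripts on GRCm38, Rps27l on the plus strand of chr9:66946086-66949516, Rps27rt on the minus strand of chr9:114982366-114982739, Rps27 on the minus strand of chr3:90212522-90213651).
Rps27l: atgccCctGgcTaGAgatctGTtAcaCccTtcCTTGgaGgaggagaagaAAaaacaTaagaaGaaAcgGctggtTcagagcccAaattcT
Rps27rt: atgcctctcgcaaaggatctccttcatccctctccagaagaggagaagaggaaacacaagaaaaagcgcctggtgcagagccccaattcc
Rps27: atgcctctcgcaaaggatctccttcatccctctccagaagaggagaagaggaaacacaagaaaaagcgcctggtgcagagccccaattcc
Of the 61 differing positions of Rps27l, 24 fall in this stretch. The posterior SD of the count, the authors' measure of how firmly reads were placed, was 0 for Rps27l in both libraries. It was 1.94% of the posterior mean count for Rps27rt in replicate 1 and 2.19% in replicate 2, and 6.78% and 7.32% for Rps27. The order of Rps27rt over Rps27 therefore compares genes whose coding reads cannot be told apart. The annotated model of Rps27 used by the authors was 255 bases long, its coding sequence alone, and that of Rps27rt was 370 bases. Counts for Rps27l, 1213 in replicate 1 and 1063 in replicate 2, were above those for Rps27, 1024 and 779, the reverse of their order in TPM.

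The starts of Rps27rt and Rps27 show the copy and its source. The 40 bases before and 25 bases from the RefSeq start are given (GRCm38.p6, minus strand, Rps27rt at chr9:114982715-114982779 and Rps27 at chr3:90213624-90213688), with the run that they share in capitals.
Rps27rt: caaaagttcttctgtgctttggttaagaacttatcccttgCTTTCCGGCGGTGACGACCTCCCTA
Rps27: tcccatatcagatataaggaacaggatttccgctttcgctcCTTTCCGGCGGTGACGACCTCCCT
The shared run is 38 bases long and begins at base 1 from the start in Rps27rt and at base 2 in Rps27. The bases before it differ.

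**Figure D2:**
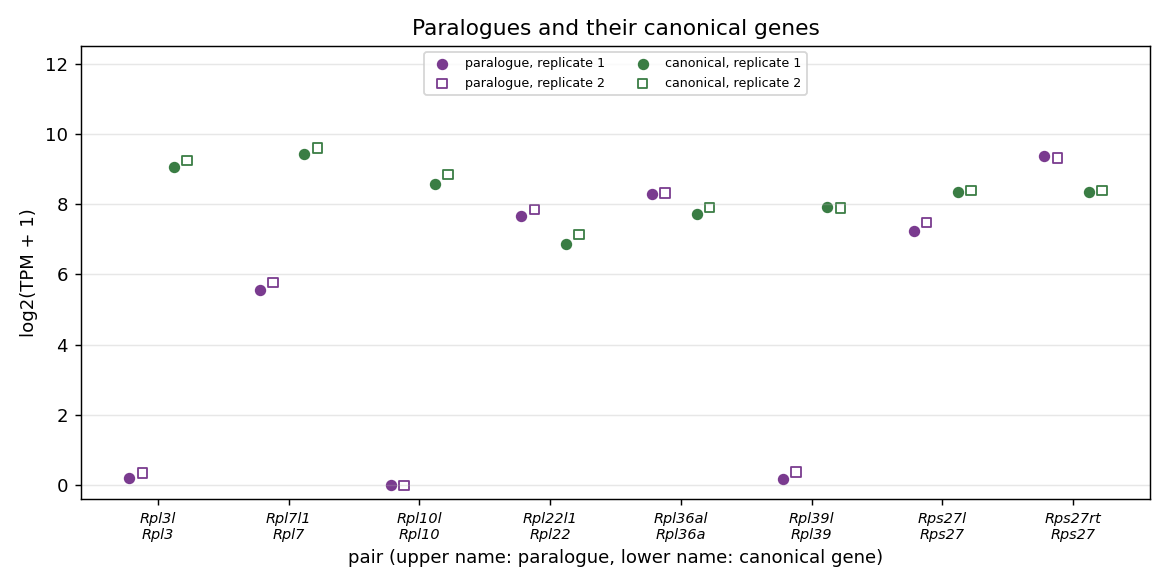
Level as log2(TPM + 1) of 8 paralogues (purple, left of each pair) and their canonical genes (green, right), with replicate 1 filled and replicate 2 open. Rpl3l, Rpl10l and Rpl39l lie near 0, Rpl7l1 and Rps27l lie below their canonical genes, and Rpl22l1, Rpl36al and Rps27rt lie above theirs.

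Reads of a ribosomal protein mRNA can also be placed on its processed copies. A search of pseudogene transcripts against the members' transcripts matched 743 gene rows to 78 members, at 90% identity or more over at least 50% of the coding sequence. Of the matched rows, 738 are annotated as pseudogenes and 5, with "-ps" in the symbol, as protein-coding. They summed to 9233 TPM in replicate 1 and 9411 TPM in replicate 2, of which the annotated pseudogenes took 19.4% and 19.5% of the TPM on all pseudogene rows. Most were silent or low: 293 were listed at 0 in both libraries, 43 reached 10 TPM in both and 23 reached 100 TPM in both. Of those 23 rows, 19 were identical to the member over the whole alignment.

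The genes lowest in their own row had some of the highest copies. Rps23, a gene of the decoding centre, had 123 TPM in replicate 1 and 119.5 TPM in replicate 2, against 633 and 699 TPM on the row of Rps23-ps1. Rpl5 had 50.2 and 56.9 TPM, against 310.0 and 334 TPM on Gm15500, and Rpl27a 68.0 and 67.7 TPM, against 288 and 299.7 TPM on Gm7536. Rpl12 had 77.5 and 90.9 TPM, against 204 and 198 TPM on Gm10275, and Rpl15 247 and 256 TPM, against 567 and 640.1 TPM on Rpl15-ps3. Rpl28 had 151 and 153 TPM, against 336 and 372 TPM on Rpl28-ps1, and Rpl37 146 and 151 TPM, against 443 and 445 TPM on Rpl37rt. High genes had such rows too: Rps29 had 814 and 813 TPM, against 877 and 788 TPM on Gm14303, and Rpl13 584 and 719 TPM, against 529.9 and 429 TPM on Gm12918. For Rpl13 the libraries moved in opposite ways, with the gene's row higher in replicate 2 and the copy's row higher in replicate 1, and the sum was 1120 TPM in replicate 1 and 1152 TPM in replicate 2.

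Of the 86 members, 12 had under 50% of the summed TPM in their own row in both libraries (among them Rpl5, Rpl27, Rps23, Rpl27a, Rpl37, Rpl12, Rpl15, Rpl28, Rps12, Rpl31 and Rps6), and 48 had 95% or more in both. The lowest own share in replicate 1 was that of Rpl5, 13.9%. In replicate 2 Rpl5 and Rps23 both had 14.5%, with Rps23 marginally lower. With the matched rows added, Rpl5 came to 360.3 and 391 TPM, Rps23 to 761 and 822 TPM, Rpl27 to 781 and 815 TPM and Rpl27a to 366 and 374 TPM. The lowest canonical gene was then Rpl22, an RNA-binding protein gene known from T cell development, at 116 and 139.6 TPM, with 99.1% and 99.7% of that in its own row. The SD of log2 TPM over the 77 canonical genes was 0.92 and 0.91 on their own rows and 0.66 and 0.63 with the matched rows. The ratio of the 90th to the 10th percentile was 5.15-fold and 5.18-fold on their own rows and 2.77-fold and 2.61-fold with the matched rows. The member share of gene-row TPM became 4.97% and 5.07%. How the authors divided reads between identical copies is not given in the sources used here, and whether any copy is itself transcribed was not tested.

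The pair of Rps23-ps1 and Rps23 does not differ over the aligned bases. The first 75 coding bases of each are given to show that no base there tells the rows apart, all in lower case as none differs (GENCODE release M21 transcripts on GRCm38, Rps23-ps1 on the plus strand of chr3:37714740-37715164, Rps23 on the plus strand of chr13:90922958-90924950).
Rps23-ps1: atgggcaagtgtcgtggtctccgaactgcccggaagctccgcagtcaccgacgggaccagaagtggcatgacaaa
Rps23: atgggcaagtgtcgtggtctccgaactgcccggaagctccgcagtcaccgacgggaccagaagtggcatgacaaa
Rps23-ps1 had no mismatch to Rps23 over 425 aligned bases.

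**Figure D3:**
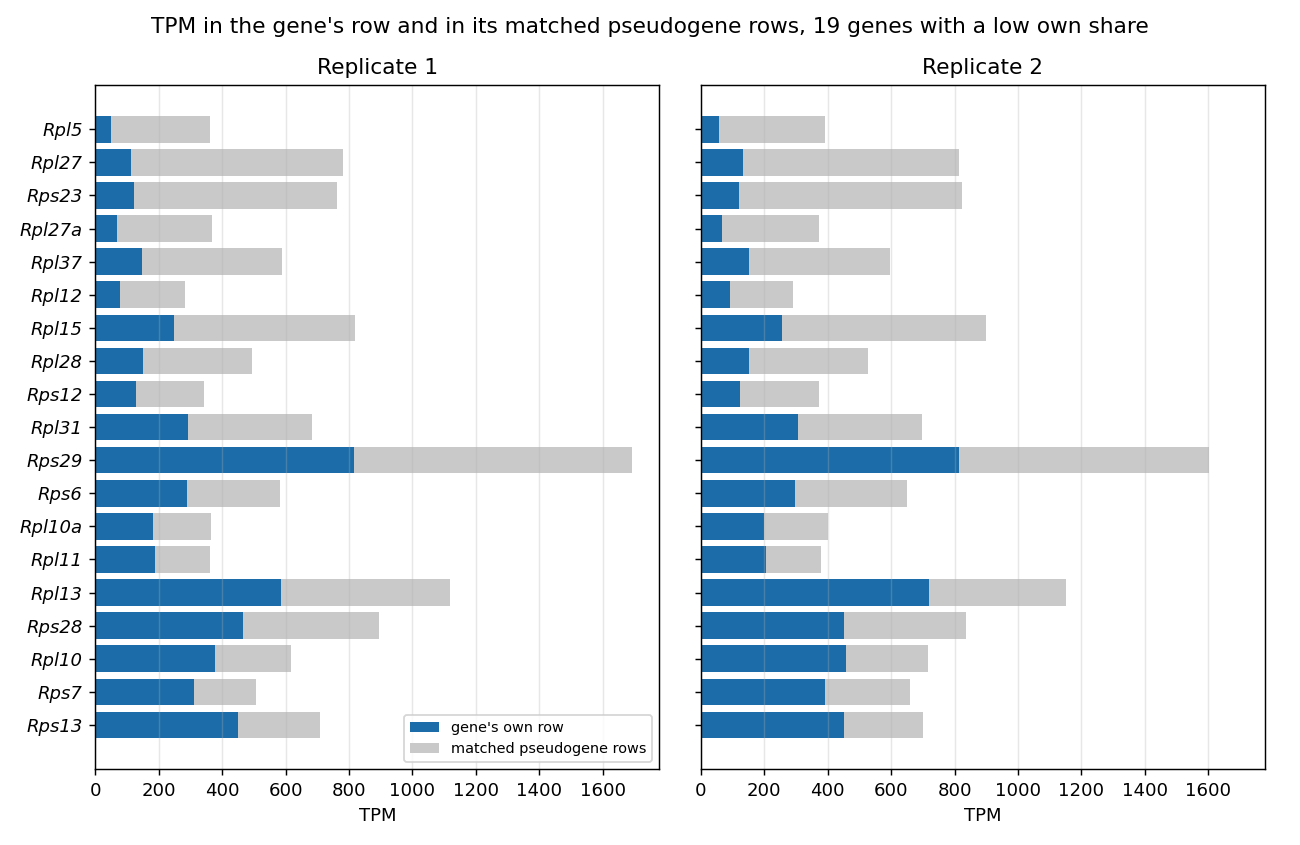
TPM in the gene's own row (blue) and in its matched pseudogene rows (grey, stacked to the right) for 19 members with a low own share in replicate 1, with replicate 1 on the left and replicate 2 on the right. Rpl5, Rpl27, Rps23 and Rpl27a have under 20% of the sum in their own row in replicate 1, and the pattern is alike in both libraries.

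Read placement was least certain for a few members, several of them with matched copies. The posterior SD exceeded 1% of the posterior mean count in both libraries for 25 members. For all gene rows that share is not given here. The highest values were those of Rps27, given above, and Rps12, at 6.15% in replicate 1 and 7.66% in replicate 2. Rpl5 had 4.18% and 4.58%, and Rpl12 3.47% and 3.64%. The posterior SD was 0 in both libraries for 7 members with more than 10 counts, among them Rps9, Rps20, Rps21 and Rpl23. The credibility interval of TPM, whose level the files do not state, was 29.1% of the posterior mean wide for Rps27 in replicate 1 and 31.6% in replicate 2, and 27.1% and 33.4% for Rps12. For Rpl41 it was 3.37% and 4.02%, and for Rpsa 3.08% and 3.60%. The interval was wider than the level itself for Rpl10l, Rpl39l and Rpl3l.

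Within genes, most RNA was assigned to coding transcripts, with several exceptions by annotation. The members had 376 transcripts in the files. By their type in release M21, 183 coding transcripts held 91.5% of the members' TPM in replicate 1 and 91.4% in replicate 2. The 48 processed transcripts held 4.22% and 4.19%, the 116 retained-intron transcripts 2.65% and 2.70%, the 10 transcripts typed for nonsense-mediated decay 0.603% and 0.515%, and the 19 absent from that release 1.03% and 1.19%. Rps24, known for splicing differences near its stop codon between tissues, had 99.1% and 99.0% of its TPM in Rps24-201. Only 2 Rps24 transcripts were listed, so variants beyond these were not measured. For Rpl35, Rps20, Rpl12 and Rpl23, the transcript holding most of the TPM is not typed as coding. Rpl35-203, a processed transcript, took 89.6% of Rpl35's TPM in replicate 1 and 87.6% in replicate 2, and Rps20-201, typed as retained intron, took 90.9% and 90.8% of Rps20's. Rpl12-201, typed for nonsense-mediated decay, took 64.3% and 63.1% of Rpl12's. Coding transcripts alone left Rpl12 at 13.2 and 14.1 TPM, Rps20 at 16.6 and 19.9 TPM and Rpl35 at 26.9 and 28.9 TPM. The types are those of a later release than the one the authors used.

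The transcript with the highest share was the same in both libraries for all but 5 members. Members with 1 transcript in the files, such as Rpl14 and Rpl32, could not differ. The share over all genes is not given here. Rps18 had 46.5% of its TPM in Rps18-201 in replicate 1 and 56.0% in replicate 2, and 50.1% and 39.7% in the processed transcript Rps18-209. Rpl11 had 40.9% and 52.9% in Rpl11-210 and 47.5% and 38.8% in Rpl11-201. Rpl13a was split over transcripts that release M21 does not hold, the leading ones at 34.4% and 34.1% and at 30.9% and 35.0%. The other two, Rpl3l and Rpl39l, rest on 2 or 3 counts. Rpl29 was split between Rpl29-201, with 57.3% and 52.0%, and Rpl29-203, with 42.7% and 48.0%, and Rpl28 between Rpl28-201, with 57.4% and 61.7%, and Rpl28-202, with 40.3% and 36.5%. Rpl23 had 59.1% and 67.5% in the processed transcript Rpl23-204. For Rpl5, 32.6% and 28.5% lay in Rpl5-205, a retained-intron transcript.

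**Figure D4:**
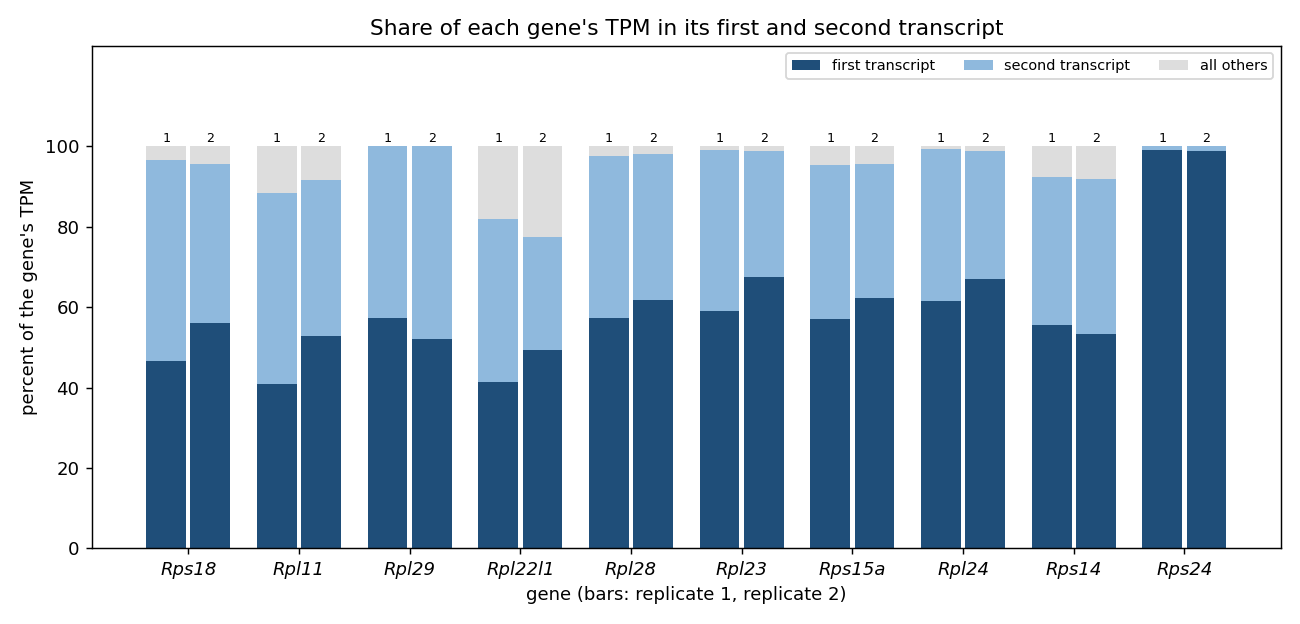
Share in percent of each gene's TPM in its first transcript (dark), second transcript (light) and all others (grey) for Rps24 and the 9 other members with the highest second-transcript share in replicate 1, Rpl3l and Rpl39l left out, with replicate 1 left and replicate 2 right in each pair of bars. Rps18 and Rpl11 change order between the libraries, and Rps24 has 99.1% and 99.0% in its first transcript.

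Short motifs known from ribosomal protein genes were counted around the starts of the members. RefSeq start windows (GRCm38.p6, 250 bases before and 50 from the start) were found for 66 of the 86 members, and 65 of these are subunit genes. In the 50 bases either side of the start, on both strands, CTTTC was found for 42 of the 65 subunit genes (64.6%), against 26.2% of all 27025 genes with a window. CTTCCG, the core of ETS factor sites, was found for 25 (38.5%), against 10.4% of all genes, AAGATGG, the core of YY1 sites, for 6 (9.23%), against 3.07%, and TATAA for 11 (16.9%), against 10.7%. Neighbouring CTTTC and CTTCCG matches can share an end base. A C at the start followed by at least 4 C or T was found for 14 (21.5%), against 3.01% of all genes. These are letters in fixed windows, not measured sites, and RefSeq starts can lie off the start used in this tissue. The windows of the 4 highest canonical genes with such a run, from 30 bases before to 20 bases from the start, are shown with the run from the start in capitals (Rps18 on the minus strand of chr17:33955646-33955695, Rpl38 on the plus strand of chr11:114668550-114668599, Rplp2 on the plus strand of chr7:141447621-141447670, Rpl35 on the minus strand of chr2:39005112-39005161).
Rps18: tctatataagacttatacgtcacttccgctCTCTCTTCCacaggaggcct
Rpl38: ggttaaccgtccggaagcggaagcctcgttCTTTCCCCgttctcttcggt
Rplp2: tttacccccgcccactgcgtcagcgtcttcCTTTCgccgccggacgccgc
Rpl35: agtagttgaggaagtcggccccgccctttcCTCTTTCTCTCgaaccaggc
In these libraries the genes had 647 and 699 TPM for Rps18, 562 and 546 TPM for Rpl38, 552 and 539 TPM for Rplp2 and 459.8 and 497 TPM for Rpl35.

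Between the libraries the members stayed close together. After scaling of library sizes by TMM, a trimmed mean of gene ratios, none of the 83 members with a mean count of 10 or more differed by 1.5-fold in either direction, against 19.2% of 17623 genes. All 83 had mean counts above 500, and of the 9118 genes at or above that count 5.26% differed by 1.5-fold. None differed by 25% of the lower library either, against 36.9% of those genes and 18.2% of the 9118. The log2 ratio of replicate 1 over replicate 2 ran from -0.24 for Rps7 to 0.22 for Rps19bp1, and among canonical genes to 0.21 for Rps15. Its median was 0.04 over the members and 0.0047 over all genes tested. It was 0.05 over 33 small subunit genes and 0.0060 over 49 large subunit genes. On the TPM scale, where sums over all rows are fixed, the median was -0.06, and with spike-in scaling it was -0.51, with 26 of 83 members past 1.5-fold (46.7% of all genes) and all 83 past 25% (79.4% of all genes), so the direction rests on the scaling. With spike-in scaling the median of all genes was -0.54.

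The largest ratios belonged to Rps7, at 309.7 TPM in replicate 1 and 391 TPM in replicate 2, Rps20, with a log2 ratio of -0.23, Rpl5 and Rpl13, with -0.20 each, and Rpl10, with -0.18. In the other direction Rps15 had 474 and 439 TPM, Rps12 a log2 ratio of 0.17 and Rps26 one of 0.16. Of the X-linked members, Rps4x had a log2 ratio of -0.11, Rpl36a -0.09 and Rpl39 0.11. The meningeal and sensory ganglion markers, by contrast, had median log2 ratios of -5.03 over 6 genes and -5.94 over 6 genes, and the cell cycle list -0.50 over 8 genes. Their part in the members' ratios was not tested.

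The median ratio was higher in shorter members than in longer ones under TMM and by TPM ratio, while the sign of the ratio depended on the scaling. Spike-in scaling shifts the TMM ratio of every gene by the same factor, so it could not change this gap. With TMM, of the 34 members under 500 effective bases, 27 had a ratio above 0 (50.8% of all genes tested had one), with a median log2 ratio of 0.08. Of the 49 longer members tested, 22 had one, with a median of -0.0077. By TPM ratio, 13 of the 34 shorter members (median -0.02) and 7 of the 49 longer members (median -0.12) were above 0. The share over all genes by TPM ratio is not given here. With spike-in scaling no member of either set was above 0, with medians of -0.47 and -0.56. Of all 17623 genes tested, 15975 were then below 0. Across the 83 members the Spearman rho of ratio with effective length was -0.43, a description of genes that share both libraries. Other protein-coding genes with a mean count of 500 or more showed it too with TMM. The median was 0.20 over 96 genes under 500 bases, of which 86 were above 0. It was 0.11 over 583 genes of 500 to 1000 bases, of which 430 were above 0, and -0.0035 over all 8903 genes, members included.

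**Figure D5:**
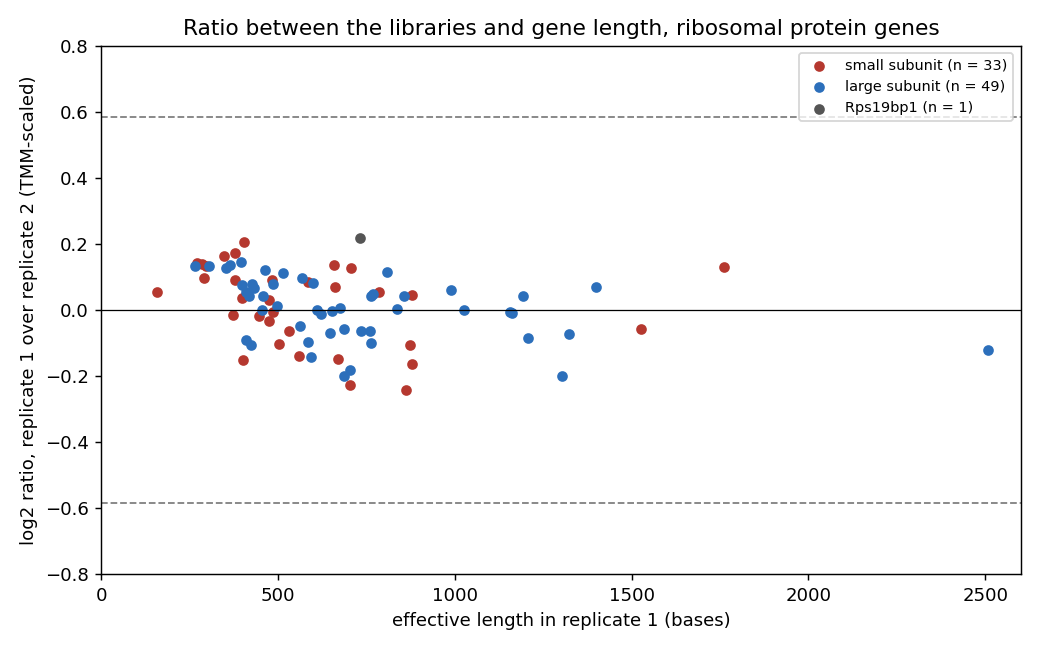
Log2 ratio of replicate 1 over replicate 2 against effective length in bases for 83 members, with small subunit genes in red, large subunit genes in blue and Rps19bp1 in grey, and 1.5-fold in each direction as dashed lines. No point reaches a dashed line, and with this TMM scaling most points under 500 bases lie above 0; by TPM ratio most lie below 0.

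Ribosomal proteins named otherwise had levels like the members. Fau, whose product is cleaved to ribosomal protein S30, had 348 TPM in replicate 1 and 329 TPM in replicate 2, and Rack1, a scaffold on the small subunit, 319 and 363 TPM. Rps27a, a ubiquitin fusion and a member, had 474 and 560.3 TPM. The 77 mitochondrial ribosomal protein genes had median levels of 74.8 and 77.8 TPM in replicates 1 and 2 and a highest value of 226 and 237 TPM, below the median of the canonical cytosolic genes.

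Other translation genes were summarised by list, and the lists overlapped in level. The 8 elongation factor genes had median levels of 268 and 324 TPM in replicates 1 and 2, led by Eef1a1, which brings tRNA to the ribosome, at 2825 and 3247 TPM, Eif5a at 819 and 896 TPM, and Eef1b2 at 424 and 403 TPM. The 12 other TOP mRNAs had a median of 207 and 229 TPM, led by Tpt1 at 647 and 661 TPM and Hnrnpa1 at 477 and 556 TPM. The 20 ribosome assembly genes had a median of 35.8 and 41.3 TPM, led by Nop56, a box C/D snoRNP protein gene, at 202 and 188 TPM and the nucleolin gene Ncl at 128 and 156 TPM. The 10 regulators had a median of 28.6 and 33.3 TPM, with Ubtf, a factor of ribosomal RNA transcription, highest at 55.8 and 67.2 TPM. All members of these 4 lists passed 1 TPM in both libraries. With TMM none passed 1.5-fold between them, against 19.2% of 17623 genes and 5.26% of the 9118 with a mean count of 500 or more. A difference of 25% of the lower library was passed by 1 elongation factor gene and 2 ribosome assembly genes. Over all genes those shares were 36.9% and 18.2%.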

How the data were processed

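Total RNA was measured in 2 libraries, each quantified separately by the authors. The texts deposited with the files name mm10 and GENCODE M4 as genome and annotation. The program that aligned reads, the quantifier and any use of strand were not given in the sources used here. Expected counts were deposited as the authors' estimates of reads for each gene, with no normalisation. Deposited TPM and FPKM values are scaled by effective length, per the file headers. Deposited percent columns give each transcript's share of its gene's TPM, and deposited score columns hold posterior spreads and credibility bounds.

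Symbols, types and coordinates came from GENCODE release M21 by identifier without version. Members and lists were chosen with earlier results of these data known. The rule for named genes took the 10 highest and 10 lowest members of each subunit, all paralogues, X-linked members, members past 1.5-fold, genes of named roles and mutants, and genes with wide intervals or divided transcripts. Rounded counts were scaled by TMM in edgeR 4.0.16 (R 4.3.3), prior count 0.5, and the step was tested on simulated data. DESeq2 1.42.0 gave alternative size factors. Pseudogene transcripts were compared with blastn (BLAST 2.17.0). A pseudocount of 1 was used with log2. Other steps used Python 3.11.15, pandas 2.3.3 and NumPy 2.4.6. The floor of 3 counts covers counting error only, as amplified reads are not independent molecules. Rps4l, annotated as a pseudogene, is not a member. Some members are counted in the totals but not reported here by name.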

Additional observations from a re-analysis of the deposited data

How the results depend on the processing

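Of 110 alternative values, 77 were counted as the same as the main value, 30 as moved and 3 as changed in sign. The median log2 ratio of members by TPM ratio, -0.06 against 0.04, is among the 77 although its sign changed. For levels and ratios between genes, the same meant within the spread of the 2 libraries. Values with either library left out stay within it by construction. Those values, counted among the 77, are no sign of stability. Counts of members and ratios between the libraries have no such spread. For them a place among the 77 does not rest on it, as with 78 members detected at 100 TPM against 83. The member share of TPM, 4.02%, was 1.36% of expected counts, 3.89% in posterior mean TPM, 4.20% without genes of the mitochondrial genome, 4.76% over protein-coding nuclear genes and 4.44% with pseudogene rows named for members added, and 3.97% to 4.08% with either library left out. The small minus large subunit difference, 0.26 on the log2 scale, was 0.81 with means for medians, 0.10 without paralogues, 0.45 in coding transcripts alone, and 0.17 to 0.35 with either library left out. The spread of log2 TPM over canonical genes, 0.92, was 0.647 with matched pseudogene rows, and 0.648 and 0.646 with rows matched at 95% and 80% identity. Members past 1.5-fold between libraries numbered 26 with spike-in scaling, and 83 then differed by 25% of the lower library (79.4% of all genes). With it the median log2 ratio was -0.51 for members and -0.54 for all genes, since this scaling shifts every gene by the same factor. Members whose highest transcript differed numbered 3 at 10 TPM or more. In expected counts the log2 ratio of Rpl22l1 to Rpl22 reversed to -0.40 and that of Rps27l to Rps27 to 0.35, and in coding transcripts that of Rpl22l1 came to 0.06; the pairs differ in effective length. The number of members detected was 78 at 100 TPM. Coding transcripts, matched pseudogene rows, the minimum of 500 counts and the 25% variants with other scalings were chosen after seeing the data. No paired analysis was possible because there is 1 group.

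Depth limits Rpl3l, Rpl10l and Rpl39l to statements about an upper limit. For 12 members, most of the summed TPM lies on rows of near-identical copies, which limits the level of the gene itself. With 2 libraries of 1 group, spread between embryos cannot be told apart from that of dissection or library preparation.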
